A study of Mus musculus with 10 samples.

Results

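The collagen genes were all genes whose probe sets are paired by the array annotation with a single symbol of the form *Col*, type number, a, chain number. This rule used no measured value and gave 42 genes of the 18193 with such a probe set, read by 82 probe sets of 45037. Of 44 collagen genes of this form in RefSeq, *Col28a1* and *Col6a6* were not analysed here. Each gene was read from its brightest probe set by the mean of the 10 arrays, and 27 genes had more than 1. By structure, 11 genes encode fibrillar chains, 6 basement membrane (type IV) chains, 2 multiplexins, 9 fibril-associated collagens (FACITs), 5 beaded filament (type VI) chains, 3 short-chain network collagens, 4 transmembrane collagens and 2 the anchoring fibril chain and *Col26a1*.

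RNA was measured on Affymetrix mouse arrays in *Max*-null ESCs, male mouse embryonic stem cells of strain 129SV. In every group both endogenous alleles of *Max*, which encodes the partner of the MYC proteins, are disrupted, and the cells carry a *Max* cDNA in the *ROSA26* locus that doxycycline (Dox, 1 µg/ml) turns off. In LIF+serum, a first set of 5 arrays held cells given Dox for 1, 2, 3 and 4 d and untreated cells, and a second set of 3 arrays held Dox 6 and 8 d and untreated cells. In 2i+LIF, a medium with inhibitors of MEK and GSK3β, there was an array after 6 d of Dox and an untreated array that the labels also give as 6 d in 2i. Each Dox time had 1 array. The sources used here do not say whether the 2 untreated LIF+serum arrays came from separate cultures, whether the line is 1 clone or whether feeder cells were used, so p-values cover the spread among these arrays alone, and that spread may be technical.

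Collagens are secreted or membrane proteins whose chains wind around each other into a helix. Fibrillar collagens form the fibres of connective tissue and are made mainly by fibroblasts, osteoblasts and chondrocytes, whereas type IV chains form the sheet-like network under epithelia and are abundant in the endoderm of the early embryo. The other classes coat fibrils, anchor cells or span the plasma membrane. Chains are hydroxylated and folded in the endoplasmic reticulum, trimmed after export, and crosslinked outside the cell.

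*Col13a1*, *Col4a1*, *Col4a2* and *Col1a2* were the genes at least 2-fold higher on day 8 of Dox than on both untreated LIF+serum arrays, and their promoters are shown for that reason. Each window runs from 250 bases before to 50 bases after the RefSeq start in GRCm38.p6 and thus holds the start of the first exon. Capitals mark motifs that were searched on both strands. These are the CCAAT box, spelled as its name (ATTGG when it lies on the other strand), the TATA box, spelled TATAAA, and the E-box that MYC and MAX bind together, spelled CACGTG.
Col13a1 (chr10:61979059-61979358, minus strand): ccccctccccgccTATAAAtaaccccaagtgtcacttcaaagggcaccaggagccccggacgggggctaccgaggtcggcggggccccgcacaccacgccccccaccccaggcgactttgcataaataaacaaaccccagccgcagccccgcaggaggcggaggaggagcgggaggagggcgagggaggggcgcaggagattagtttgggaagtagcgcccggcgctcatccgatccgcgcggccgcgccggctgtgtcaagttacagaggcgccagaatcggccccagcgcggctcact
Col4a1 (chr8:11312777-11313076, minus strand): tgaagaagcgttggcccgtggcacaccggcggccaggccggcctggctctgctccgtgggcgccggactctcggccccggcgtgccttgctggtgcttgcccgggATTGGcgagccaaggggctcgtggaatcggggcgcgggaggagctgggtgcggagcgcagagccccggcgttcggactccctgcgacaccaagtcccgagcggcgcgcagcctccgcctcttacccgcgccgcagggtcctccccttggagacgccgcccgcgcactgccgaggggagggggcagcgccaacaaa
Col4a2 (chr8:11312555-11312854, plus strand): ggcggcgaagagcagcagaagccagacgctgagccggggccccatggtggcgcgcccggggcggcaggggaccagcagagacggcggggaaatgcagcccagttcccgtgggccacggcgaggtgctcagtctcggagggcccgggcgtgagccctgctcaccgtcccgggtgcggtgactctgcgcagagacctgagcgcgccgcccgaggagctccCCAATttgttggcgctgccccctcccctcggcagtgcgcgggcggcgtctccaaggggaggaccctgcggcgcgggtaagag
Col1a2 (chr6:4505368-4505667, plus strand): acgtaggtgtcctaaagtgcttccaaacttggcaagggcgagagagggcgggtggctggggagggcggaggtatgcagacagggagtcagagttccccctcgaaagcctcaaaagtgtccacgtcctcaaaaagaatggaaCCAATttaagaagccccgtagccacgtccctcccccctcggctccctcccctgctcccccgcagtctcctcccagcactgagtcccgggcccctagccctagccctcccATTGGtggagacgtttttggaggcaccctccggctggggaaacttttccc
*Col4a1* and *Col4a2* lie head to head on chromosome 8, with the starts used here 21 bases apart, so their windows share 78 bases. No marked motif overlapped another in these windows. Of the collagen genes, 33 had 36 promoters in the RefSeq table. The letters CACGTG were in 0 of the 36, against 7.15% of all 32851 promoters of that length, CCAAT in 13 (37.4% of all promoters) and TATAAA in 5 (13.6%).

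Cell identity and array quality were read first. All 8 ESC markers, *Pou5f1* and *Nanog* among them, were at or above 6 on the log2 scale on every array. That floor does not mean that they were unchanged. By the limma slope described below, 2 of the 8 rose with days of Dox and 1 fell (5.75% and 5.33% of all genes). Their median fold over the untreated array of the same set reached 1.68 by day 4, 1.61 by day 6 and 1.29 by day 8. *Max* itself was 0.773-fold on day 4 and 1.37-fold on day 8 (adjusted p = 0.785, limma). Its probe set has no stated place relative to the disrupted part or the cDNA and thus checks nothing. The array medians were 5.162 in 2i+LIF with Dox, 5.138 in untreated 2i+LIF and 5.263 to 5.334 in LIF+serum. The 3′ probe set of beta-actin exceeded the 5′ one by 0.41 on the first untreated array and by 0.52 to 0.56 on days 1 to 4, and by 0.88 on the second untreated array, 1.46 on day 6 and 1.22 on day 8 (log2), so it was larger in the second set and larger there with Dox. For *Gapdh* the same difference was 0.12 on the second untreated array, 0.09 on day 6 and 0.05 on day 8, so it was smaller with Dox. The part of RNA quality in the results below was not tested.

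Most collagen genes were dim in these cells. Of the 42, 24 stayed below 6 (log2) on every array, and 18 (42.9%) reached 6 on at least 1 array, against 63.3% of all genes. *Col18a1*, *Col27a1*, *Col16a1* and *Col6a2* were the members at or above 6 on all 10 arrays (44.9% of all genes were). *Col18a1*, a multiplexin of basement membranes whose end fragment is endostatin, had 10.41 and 10.42 on the untreated LIF+serum arrays, and *Col27a1*, a minor fibrillar chain, had 7.32 and 7.26. *Col6a2*, a type VI chain, had 7.19 and 6.78 there and *Col16a1*, a FACIT, 6.12 and 6.03. The chains of type I and III collagen, the abundant fibres of skin and vessel, were not among these: *Col1a1* ranged between 3.55 and 4.64 and *Col3a1* between 2.64 and 4.57 over the 10 arrays.

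**Figure D1:**
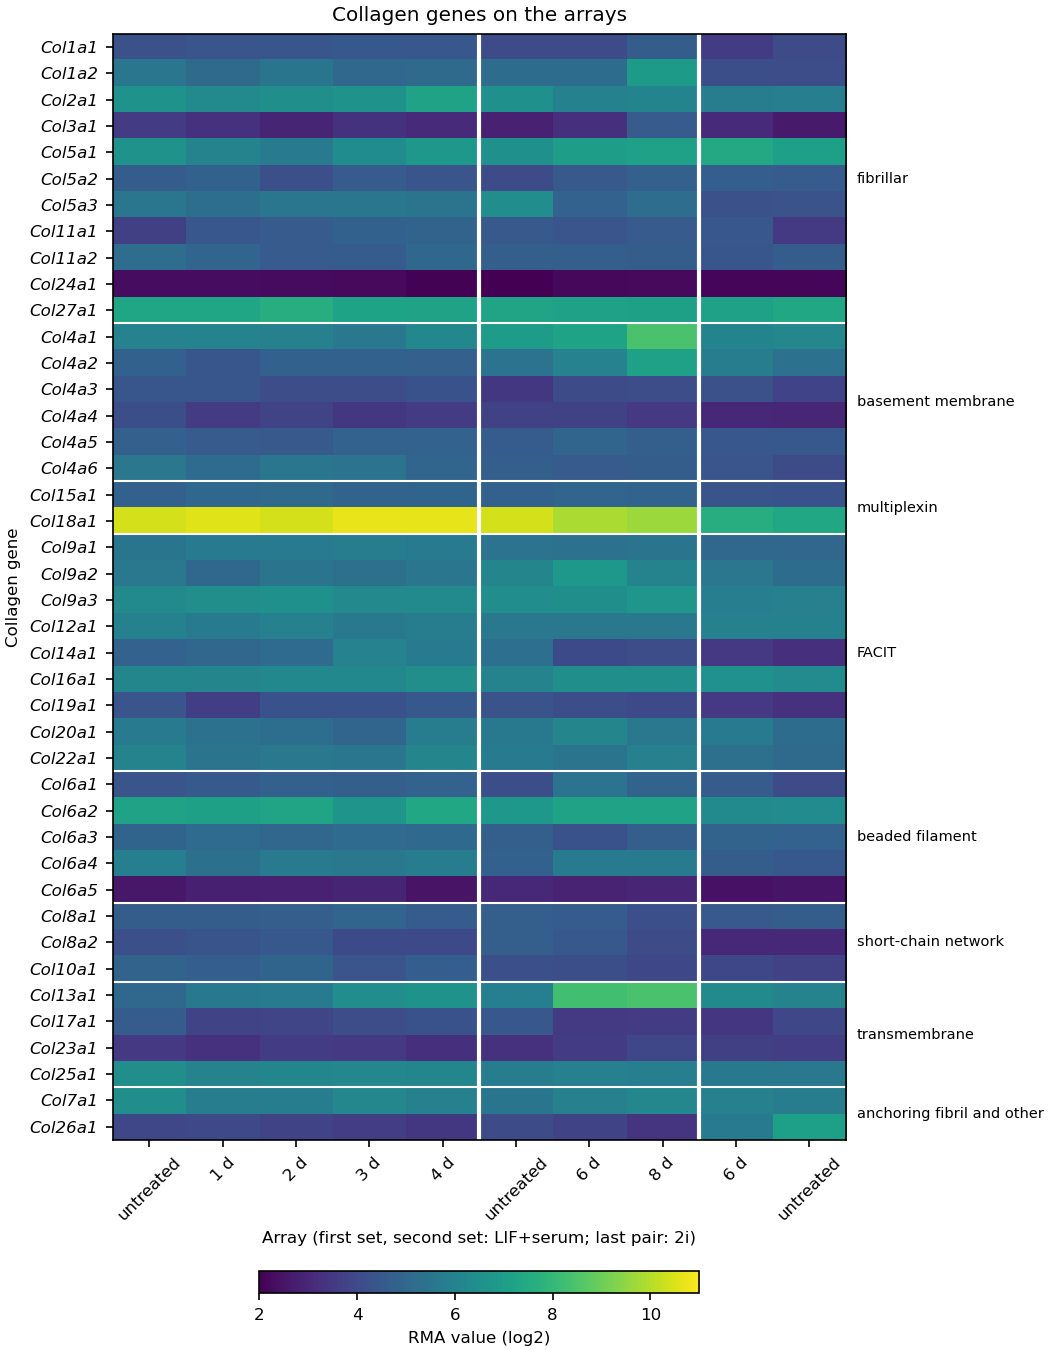
Log2 values of the 42 collagen genes (rows, by class) on the 10 arrays (columns), with the first LIF+serum set, the second set and the 2i+LIF pair separated by white lines. Colours are to be read along a row, since probe sets of different genes are not comparable. *Col18a1* was bright on the LIF+serum arrays and dimmer in 2i+LIF, and *Col13a1*, *Col4a1* and *Col4a2* were brightest on day 8.

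With days of Dox in LIF+serum, *Col13a1* rose and the test called no other collagen gene in either direction. The test was a limma slope per day over the 8 arrays with the array set as a term, adjusted over all probe sets at 0.05, by which 5.75% of all genes rose and 5.33% fell (11.1% either way). The count of 1 in 42 was no larger than that background. At an unadjusted p under 0.05 there were 10 of 42, against 28.1% of all genes, with 6 positive slopes (*Col13a1*, *Col4a1*, *Col4a2*, *Col16a1*, *Col6a1* and *Col6a4*) and 4 negative ones (*Col5a3*, *Col8a2*, *Col17a1* and *Col26a1*). The median slope of the collagen genes was 0.012 per day and that of all genes -0.009. Since RNA came from whole cultures, more cells that express a gene and more RNA per cell cannot be told apart.

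**Figure D2:**
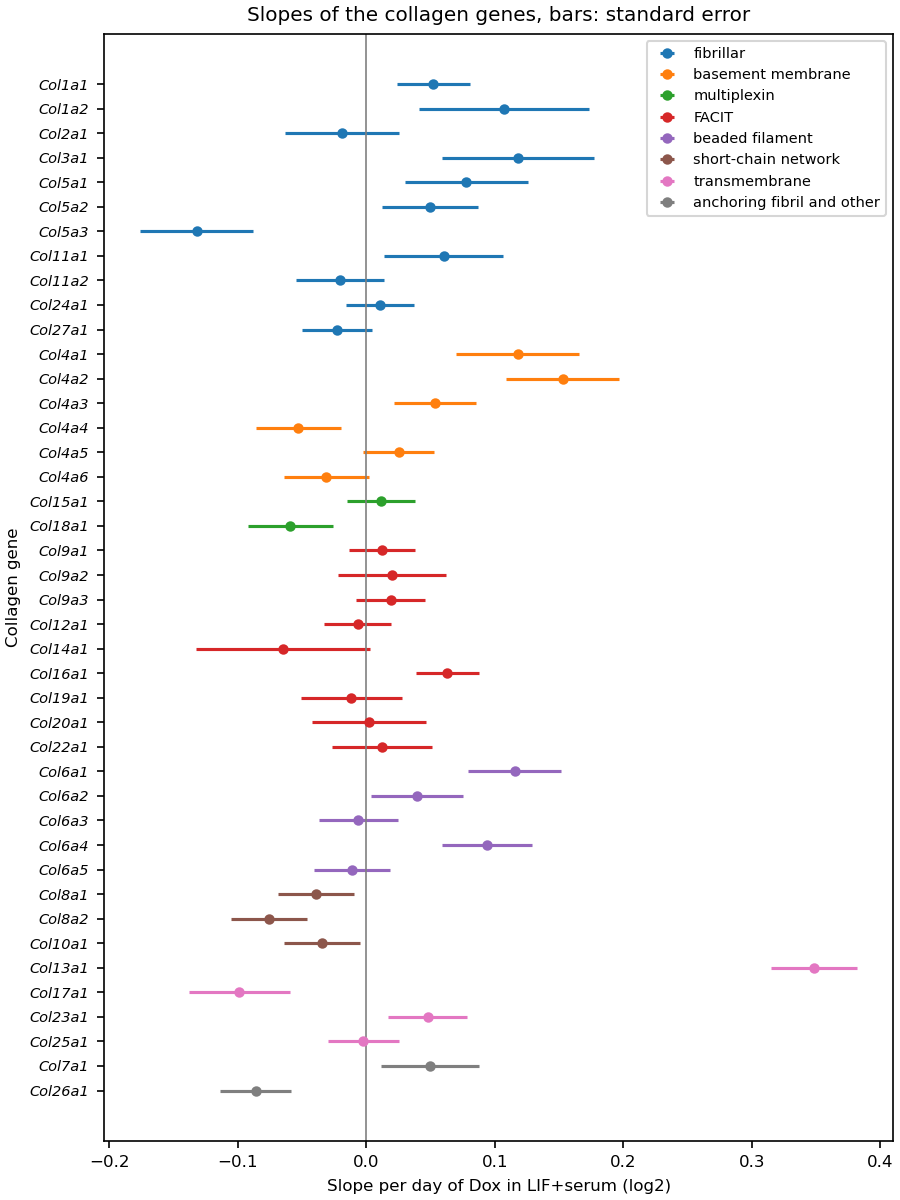
Slope of each collagen gene per day of Dox in LIF+serum (x axis, log2 per day) with its standard error as a bar, coloured by class. *Col13a1*, at 0.35 per day, lies apart from the other genes, which lie between -0.13 and 0.15.

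*Col13a1* encodes a transmembrane collagen of cell-matrix contacts that is needed at the neuromuscular junction. It was read by 1 probe set, as were *Col4a2* and *Col6a1*, so the values of these genes could not be compared between probe sets. In the first set its value was 5.03 untreated and 5.62, 5.68, 6.42 and 6.57 after 1, 2, 3 and 4 d of Dox. In the second set it was 5.88 untreated, 8.28 on day 6 and 8.42 on day 8. Every Dox array lay above the untreated array of its set, and the 1 and 2 d arrays lay below the second untreated array. The folds were 1.51, 1.57, 2.63, 2.92, 5.28 and 5.82 in order of time, and the 8 d array was 10.5-fold above the first untreated array. The slope was 0.35 per day (standard error 0.03, adjusted p = 0.00258, limma), which ranked 137 from the top among the 18193 genes. It was 0.39 in the first set alone (adjusted p = 0.0288, with 3.31% of all genes called positive and 2.06% negative) and 0.34 in the second (adjusted p = 0.00313) in a limma fit with a slope for each set, and the difference between them, second minus first, was -0.05 (adjusted p = 0.835). Leaving out the second untreated array kept the slope at 0.34, but its standard error became 0.07 and its adjusted p 0.245. In that limma fit, where the second set kept day 6 and day 8 alone, 0 of the 42 genes and 0 of all 18193 were called. In 2i+LIF the value was 6.29 with Dox and 6.02 untreated, a fold of 1.21 against 5.28 at the same time in LIF+serum, each from 1 array per group, with no test of the difference.

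**Figure D3:**
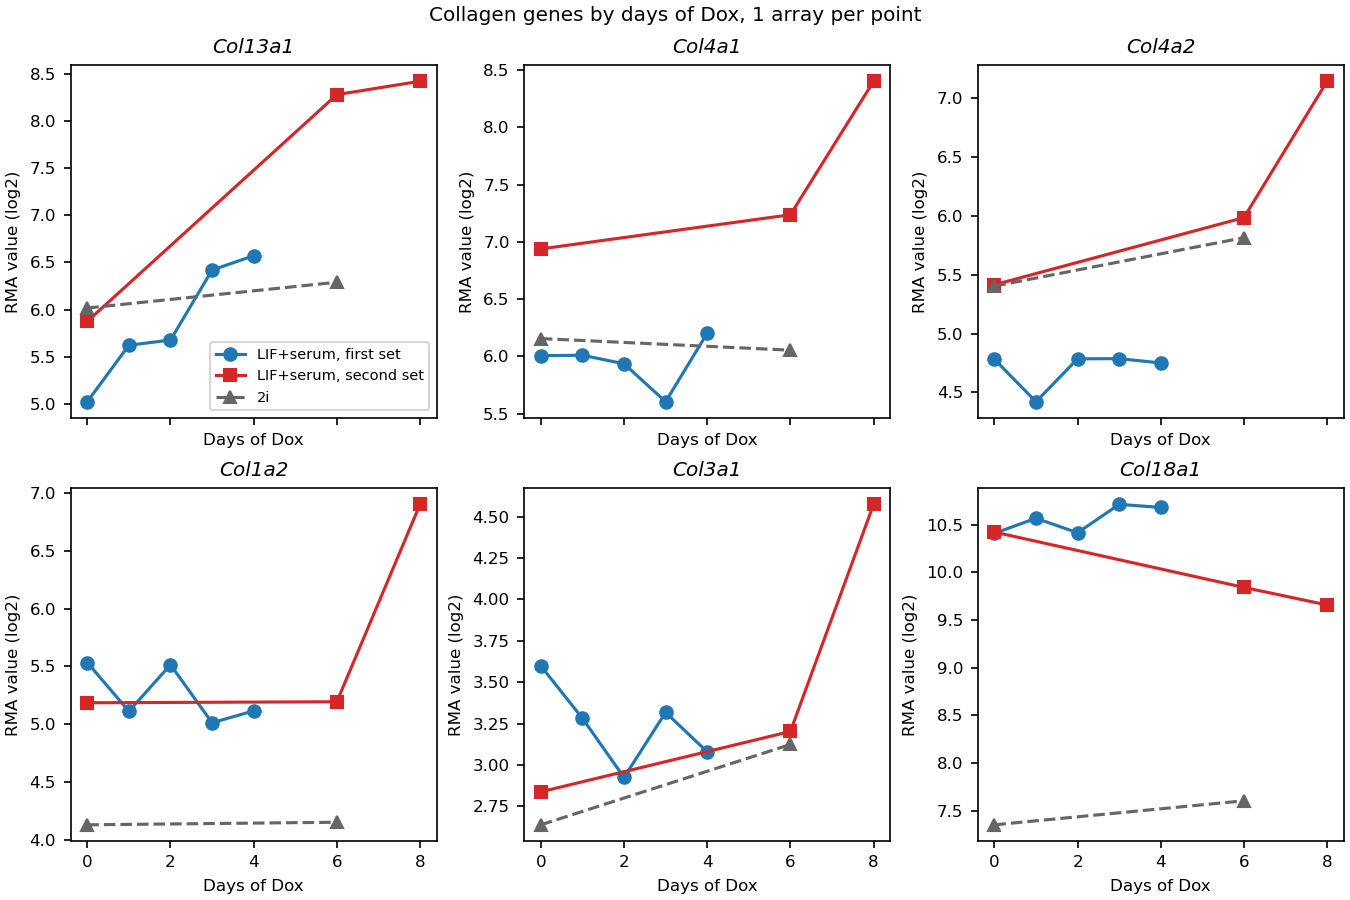
Log2 values (y axis, own scale in each panel) of collagen genes by days of Dox (x axis), with 1 array per point and lines for the first LIF+serum set, the second set and 2i+LIF. *Col13a1* is higher at each Dox time than at day 0 of its set, and *Col1a2* and *Col3a1* stand out on day 8 alone.

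The other transmembrane collagens did not pass the test. *Col17a1*, a component of hemidesmosomes, had 4.60 untreated and 3.86, 3.89, 4.12 and 4.26 on days 1 to 4, and 4.43 untreated, 3.52 and 3.60 in the second set (slope -0.10, adjusted p = 0.159, limma). All 6 Dox arrays were lower than both untreated arrays, with folds of 0.53 to 0.788 over their own untreated array. *Col23a1* stayed between 3.23 and 3.91 on all arrays, and *Col25a1*, which is needed for motor axons to reach muscle, was between 5.59 and 6.45.

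Of the 6 basement membrane genes, 0 rose and 0 fell by the limma slope, with 2 of 6 at an unadjusted p under 0.05. These were *Col4a1* and *Col4a2*, whose chains make up the network found in nearly all basement membranes. *Col4a1* had 6.01 untreated and 6.01, 5.93, 5.60 and 6.20 on days 1 to 4, then 6.94 untreated, 7.24 on day 6 and 8.40 on day 8 in the second set. *Col4a2* had 4.78 untreated and 4.42, 4.79, 4.79 and 4.75 on days 1 to 4, then 5.41 untreated, 5.99 on day 6 and 7.14 on day 8. For both genes the 1 to 4 d arrays surrounded their untreated array, the second untreated array was above all 5 arrays of the first set, and the 8 d array was the highest of the 10. The 8 d folds were 2.76 for *Col4a1* and 3.32 for *Col4a2* over the second untreated array, and 5.27 and 5.14 over the first. The slopes were 0.12 (standard error 0.05, adjusted p = 0.165, limma) for *Col4a1* and 0.15 (standard error 0.04, adjusted p = 0.0599) for *Col4a2*. Both slopes rested on the 8 d array, without which they were 0.03 for *Col4a1* (adjusted p = 0.69) and 0.07 for *Col4a2* (adjusted p = 0.257). The adjusted p for *Col4a2* ranged between 0.0286 without the first untreated array and 0.831 in the first set alone over the alternatives, and it was also below the threshold without the array set term (0.041) and without the 6 d array (0.0454).

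Within the second set alone, the *Col4a2* slope was 0.19 per day (adjusted p = 0.0358, limma), where 4.48% of all genes had a positive and 4.24% a negative call, and in the first set it was 0.03 (adjusted p = 0.884). The difference between the sets was not called for *Col4a2* (0.16, adjusted p = 0.515) or for any other collagen gene (0 of 42), and among all genes 0.0% were called positive and 0.0055% negative. At an unadjusted p under 0.05 there were 6 of 42, and the share of all genes was not counted, so this number cannot be read as many or few. A dimmer probe set of *Col4a1* was 2.19-fold over the second untreated array on day 8 and 1.46-fold over the first. On it the second untreated array was 0.668-fold the first, whereas on the brighter probe set it was 1.91-fold, so the reading before Dox depended on the probe set.

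The chains of more restricted basement membranes, such as those of the kidney filter, were dim. *Col4a3* and *Col4a4*, which lie head to head on chromosome 1, ranged between 3.46 and 4.41 and between 2.97 and 4.16, with 8 d folds of 1.58 and 0.81. *Col4a5* and *Col4a6*, neighbours on the X chromosome, ranged between 4.46 and 4.92 and between 4.10 and 5.56, with 8 d folds of 1.08 and 0.952. None of these 4 genes passed the test (adjusted p = 0.351 to 0.642, limma). A dimmer *Col4a5* probe set was 2.8-fold its untreated array on day 6 and 1.91-fold on day 8 (adjusted p = 0.209).

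Of the 11 fibrillar genes, 0 rose and 0 fell, and 1 of 11, *Col5a3*, had an unadjusted p under 0.05. *Col1a2*, the second chain of type I collagen, had 5.53 untreated and 5.11, 5.51, 5.01 and 5.12 on days 1 to 4, then 5.19 untreated, 5.19 on day 6 and 6.90 on day 8. *Col3a1*, the type III chain, had 3.60 untreated and 3.28, 2.92, 3.32 and 3.08 on days 1 to 4, then 2.84 untreated, 3.20 on day 6 and 4.57 on day 8. In both genes the 8 d array stood above the other 7 LIF+serum arrays, while the 1 to 4 d arrays were all below their untreated array. The 8 d folds were 3.28 for *Col1a2* and 3.33 for *Col3a1*, and 2.58 and 1.97 over the first untreated array. With 1 array on day 8 these rest on that array: the *Col1a2* slope was 0.11 per day (standard error 0.07, adjusted p = 0.369, limma) over all 8 arrays and -0.03 without the 8 d array. The slope of *Col3a1* was 0.12 (standard error 0.06, adjusted p = 0.263). *Col1a1*, the main chain of type I collagen, had 4.64 on day 8 and 4.08 on the second untreated array, a fold of 1.48 (slope 0.05, adjusted p = 0.302). Of the other *Col1a2* probe sets, the brighter was 2.43-fold on day 8 and the dimmest 0.908-fold, and the other *Col3a1* probe set was 1.12-fold.

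*Col5a3*, a type V chain that takes part in fibril assembly, was lower on the late Dox arrays than on their untreated array. It had 5.53 untreated and 5.25, 5.52, 5.52 and 5.47 on days 1 to 4, then 6.40 untreated, 4.83 on day 6 and 5.21 on day 8. The second untreated array was the highest of the 10 and both later Dox arrays were below all 5 arrays of the first set. The folds were 0.336 on day 6 and 0.439 on day 8, but 0.805 on day 8 over the first untreated array. The slope was -0.13 over all arrays (standard error 0.04, adjusted p = 0.0969, limma) and -0.17 within the second set, where it passed (adjusted p = 0.0375). Its dimmer probe set had folds of 1.04 and 0.908 on days 6 and 8.

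*Col11a1*, a chain of cartilage fibrils, was 2.11-fold and 2.23-fold its untreated array on days 3 and 4, with values of 3.71 untreated and 4.46, 4.57, 4.78 and 4.86 on days 1 to 4. The second set had 4.51 untreated, 4.36 and 4.58, also above the first untreated array, and the slope was 0.06 (adjusted p = 0.486, limma). A dimmer *Col11a1* probe set was 1.11-fold on days 3 and 4, so the early folds were seen on 1 of 2 probe sets. *Col2a1*, the cartilage type II chain, was 1.49-fold on day 4 and 0.72-fold on day 8. *Col5a1*, another type V chain, was between 5.66 and 7.42, with 7.14 on day 8 and 6.50 on its untreated array (1.56-fold). *Col5a2*, *Col11a2*, *Col24a1* and *Col27a1* stayed within 2-fold of their untreated arrays at every time. The fibrillar genes had a median slope of 0.049 and a median 8 d fold of 1.18, the basement membrane genes 0.039 and 1.31, and all genes -0.009 and 0.974. Over the other untreated array the median log2 fold on day 8 was 0.13 for the fibrillar genes and turned to -0.17 for the basement membrane genes (0.24 and 0.39 over their own).

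The multiplexin *Col18a1* was at 10.41 untreated and 10.57, 10.42, 10.71 and 10.68 on days 1 to 4, then at 10.42 untreated, 9.84 on day 6 and 9.66 on day 8. The 6 and 8 d arrays were the lowest in LIF+serum, at 0.668-fold and 0.588-fold, while those of the first set were at or above their untreated array. The slope did not pass (-0.06, standard error 0.03, adjusted p = 0.318, limma) and was 0.07 in the first set alone. The other *Col18a1* probe set was 0.525-fold on day 6 and 0.44-fold on day 8 (adjusted p = 0.1). *Col15a1*, its relative, was between 4.27 and 5.11 throughout, with a fold of 1.05 on day 8.

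Among the FACITs, which sit on the surface of fibrils, 0 of 9 passed (1 at an unadjusted p under 0.05). *Col14a1*, which binds type I fibrils, had 4.85 untreated and 4.97, 5.13, 5.99 and 5.67 on days 1 to 4, then 5.29 untreated, 4.02 on day 6 and 4.14 on day 8. The early Dox arrays were above and the late ones below their untreated arrays, with folds of 2.21 on day 3, 0.413 on day 6 and 0.448 on day 8. Its slope was 0.27 in the first set and -0.16 in the second, a difference of -0.43 (unadjusted p = 0.000773, adjusted p = 0.142, limma), and its other probe sets were 0.637-fold and 0.994-fold on day 3. *Col16a1*, the FACIT at or above 6 on every array, was 1.36-fold on days 6 and 8 (slope 0.06, adjusted p = 0.149), and *Col9a3*, a chain of the type IX collagen of cartilage, was 1.22-fold on day 8. *Col9a2* was 1.62-fold on day 6 and 0.963-fold on day 8. *Col9a1*, *Col12a1*, *Col19a1* and *Col20a1* stayed within 2-fold of their untreated arrays at every time.

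A dimmer probe set of *Col22a1*, a FACIT of the muscle-tendon junction, rose with days of Dox and was the other of the 2 member probe sets that passed, of 82 (4.77% of all probe sets rose, and 4.17% fell, 8.95% either way). It had 3.82 untreated and 3.68, 3.67, 4.08 and 4.86 on days 1 to 4, then 4.52 untreated, 6.01 on day 6 and 5.75 on day 8 (slope 0.19, standard error 0.04, adjusted p = 0.0272, limma). The gene's brightest probe set, which stands for it in the counts, had 5.73 untreated, 5.47 on day 6 and 5.93 on day 8 (slope 0.01, adjusted p = 0.892), so the probe sets of this gene disagreed. The remaining probe set was 2.03-fold on day 6 and 1.54-fold on day 8 (adjusted p = 0.186).

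In the beaded filament class, *Col6a1* had 4.39 untreated and 4.54, 4.77, 4.74 and 4.85 on days 1 to 4, then 4.16 untreated, 5.42 on day 6 and 4.87 on day 8. All 6 Dox arrays were above both untreated arrays, with folds of 2.4 on day 6 and 1.63 on day 8 over their own, but the slope did not pass (0.12, standard error 0.04, adjusted p = 0.081, limma). Its neighbour on chromosome 10, *Col6a2*, was 1.31-fold at both times. *Col6a4* was 1.83-fold on day 8 over the second untreated array and 0.865-fold over the first, and it was the member whose 2 untreated arrays differed by more than 2-fold (second over first 0.473, where 6.43% of all genes were 2-fold higher and 2.02% lower). The dimmer *Col6a4* probe set was 1.07-fold on day 6 and 1.06-fold on day 8 over the second untreated array (adjusted p = 0.966, limma). *Col6a3* and *Col6a5* stayed between 0.727-fold and 1.29-fold. The short-chain collagens of cornea, vessel and growth cartilage, *Col8a1*, *Col8a2* and *Col10a1*, were below 6 on every array and at 0.687-fold, 0.622-fold and 0.84-fold on day 8. *Col7a1*, the chain that anchors the epidermis, was 1.59-fold on day 8 and *Col26a1* 0.618-fold.

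Counted at 2-fold over the untreated array of their own set, with no test, 0 of 42 collagen genes were higher or lower on day 1 (3.0% and 0.566% of all genes) and on day 2 (4.28% and 1.36%). There were 3 higher and 0 lower on day 3 (6.13% and 3.06%), 2 and 0 on day 4 (7.72% and 3.92%), 2 and 2 on day 6 (5.94% and 5.35%), and 5 and 2 on day 8 (6.38% and 5.65%). The 5 on day 8 were *Col13a1*, *Col4a2*, *Col3a1*, *Col1a2* and *Col4a1*, of which all but *Col3a1* were also 2-fold above the first untreated array (5.16% of all genes were above both). In all, 9 of 42 were past 2-fold at some Dox time, against 23.8% of all genes. The 2 untreated arrays differed by a median of 0.34 (log2, either way) for the collagen genes and 0.35 for all genes.

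In 2i+LIF, 0 of 42 were 2-fold higher and 1 was 2-fold lower after 6 d of Dox (1.75% and 2.42% of all genes). This was *Col26a1*, at 5.70 with Dox and 7.08 untreated, a fold of 0.386, while it had 3.85 on day 6 and 4.07 untreated in LIF+serum. Its other probe set had 2.73 with Dox and 2.56 untreated in 2i+LIF, so that the fold was seen on 1 of 2 probe sets. *Col11a1* had 4.45 with Dox and 3.54 untreated (1.88-fold, but 1.14-fold on its dimmer probe set), *Col6a1* 4.63 and 4.09 (1.45-fold), and *Col3a1* 3.12 and 2.64 (1.4-fold). *Col4a2* had 5.81 with Dox and 5.40 untreated and *Col4a1* 6.05 and 6.15. *Col1a2* had 4.15 with Dox and 4.13 untreated (1.02-fold). The median fold was 1.04 over the collagen genes, 1.02 over fibrillar, 1.12 over basement membrane and 1.01 over all genes.

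**Figure D4:**
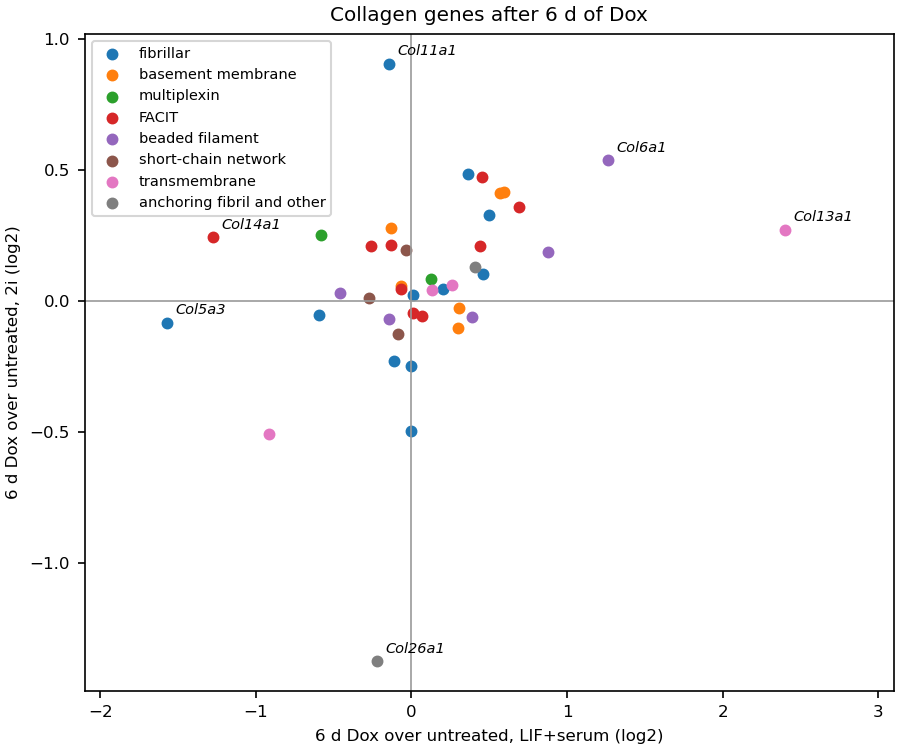
Log2 fold of each collagen gene after 6 d of Dox over its untreated array, in LIF+serum (x axis) and in 2i+LIF (y axis), coloured by class, with 1 array per group. *Col13a1* lies far right, at 1.21-fold in 2i+LIF and 5.28-fold in LIF+serum, and *Col26a1* lies lowest at 0.386-fold in 2i+LIF.

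Before Dox, several collagen genes differed by medium, though medium and the set of arrays cannot be told apart here. Untreated 2i+LIF cells were at least 2-fold lower than both untreated LIF+serum arrays for 6 of 42 genes (4.01% of all genes), namely *Col18a1*, *Col14a1*, *Col5a3*, *Col8a2*, *Col1a2* and *Col19a1*, and at least 2-fold higher for *Col26a1* (3.72%). *Col18a1* had 7.35 in 2i+LIF against 10.41 and 10.42 in LIF+serum, or 0.12-fold and 0.119-fold, and its other probe set had 6.82 against 10.19 and 10.03. With Dox in 2i+LIF it was at 7.60, below all 8 LIF+serum arrays as well. *Col14a1* had 3.26 in 2i+LIF against 4.85 and 5.29 in LIF+serum. Its other probe sets did not share this, with 4.15 against 4.55 and 3.65, and 4.00 against 4.12 and 4.17. The other *Col19a1* probe sets had 3.21 against 3.80 and 3.24, and 2.38 against 2.59 and 2.61. These and the other *Col1a2* probe sets were lower in 2i+LIF than on both LIF+serum arrays, but by less than 2-fold. *Col26a1* had 7.08 in 2i+LIF against 3.91 and 4.07 in LIF+serum, 8.98-fold and 8.06-fold higher, but its dimmer probe set had 2.56 against 3.00 and 2.82. *Col1a2* had 4.13 against 5.53 and 5.19, and *Col3a1* 2.64 against 3.60 and 2.84. *Col4a1*, at 6.15, lay between the LIF+serum values of 6.01 and 6.94, and *Col4a2*, at 5.40, between 4.78 and 5.41. In all, 28 of 42 were lower in untreated 2i+LIF than on both LIF+serum arrays, against 44.3% of all genes. This comparison was not matched for level, and 24 of the 42 stayed below 6 on every array. With 1 array in 2i+LIF, no test was made.

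**Figure D5:**
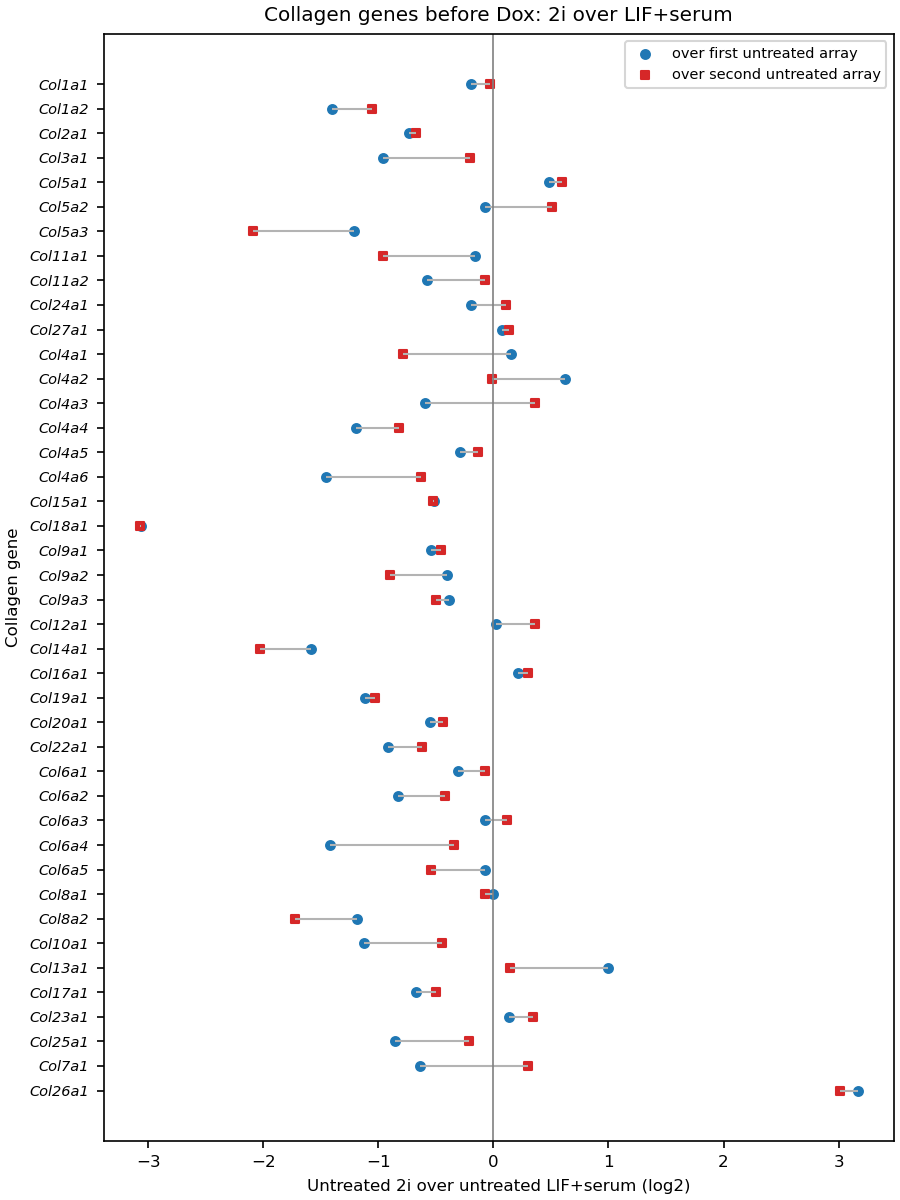
Log2 difference of each collagen gene on the untreated 2i+LIF array from the first (circles) and the second (squares) untreated LIF+serum array, in rows by gene. *Col18a1* lies farthest left, at 0.12-fold and 0.119-fold, and *Col26a1* farthest right, at 8.98-fold and 8.06-fold.

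Markers of cells that make these collagens were read beside them. Of 13 fibroblast markers, *Pdgfrb* and *Acta2* rose with days of Dox and 0 fell (5.75% and 5.33% of all genes). *Pdgfrb*, a receptor of mesenchymal cells, was 6.7-fold on day 8 (adjusted p = 0.00763, limma), and *Acta2*, smooth muscle actin, had 9.44 on day 8 and 5.37 untreated (16.8-fold, adjusted p = 0.0471). The summed level of the list (linear scale) was 407 to 552 on the 5 arrays of the first set, 445 on the second untreated array, 565 on day 6 and 1405 on day 8, so it was highest on the array on which *Col1a2* and *Col3a1* were highest. Much of that came from *Acta2*, without which the sum was 709 on day 8 and 404 on its untreated array. The median 8 d fold of the 13 markers was 0.924, and 3 of them were at least 2-fold higher. Of the 13 markers, 8 stayed below 6 on every array, *Dcn*, *Lum*, *Postn*, *Prrx1* and *Fap* among them, and *Thy1* was at 7.02 on day 8 and 7.22 on its untreated array. The sum was 520 with Dox and 411 untreated in 2i+LIF.

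Of 13 primitive endoderm markers, *Srgn* rose (3.15-fold on day 8, adjusted p = 0.0212, limma) and 0 fell, where 5.75% of all genes rose and 5.33% fell. Of *Gata4*, *Sox17* and *Gata6*, which all define that lineage, the first and second stayed below 6 on every array. *Gata6* had 6.24 on day 8 and 4.17 untreated (4.18-fold, adjusted p = 0.461, limma), and *Foxa2* 6.68 and 4.47 (4.64-fold, adjusted p = 0.231). The median 8 d fold of the 13 markers was 1.51, against 0.974 over all genes. The summed level was 428 to 505 in the first set, and 391 untreated, 416 on day 6 and 617 on day 8 in the second. In 2i+LIF it was 464 with Dox and 592 untreated. Of 8 trophoblast markers *Krt7* rose (5.75-fold on day 8, adjusted p = 0.0133, limma), and *Krt18* was 6.21-fold and *Krt8* 3.94-fold there without passing. The median 8 d fold of this list was 1.92. Its summed level was 434 to 666 in the first set, and 528 untreated, 913 on day 6 and 2030 on day 8 in the second. In 2i+LIF the trophoblast sum was 834 with Dox and 1975 untreated. The 8 d array was thus the highest for *Col4a1*, *Col4a2*, *Col1a2* and *Col3a1* and for the sums of all 3 lists in LIF+serum. The mesoderm sum was also highest there (390, against 219 to 271 on the other LIF+serum arrays), whereas the neural sum was lowest (352). On the untreated 2i+LIF array *Col4a1* had 6.15 and *Col4a2* 5.40, against 8.40 and 7.14 on day 8. The part of such cells in the collagen values was not tested. None of 6 mesoderm and 5 neural markers passed the test.

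Of 19 measured genes for collagen synthesis in the endoplasmic reticulum, *P4ha2* rose and *Crtap* fell (5.75% and 5.33% of all genes). *P4ha2*, a catalytic subunit of prolyl 4-hydroxylase, had 6.56 untreated and 6.17, 6.01, 6.70 and 7.40 on days 1 to 4, then 6.47 untreated, 8.53 on day 6 and 8.76 on day 8 (slope 0.28, standard error 0.05, adjusted p = 0.00942, limma). The arrays from 3 d on were above both untreated ones, the 1 and 2 d arrays were below, and in 2i+LIF it had 8.12 with Dox and 6.60 untreated (2.86-fold). *P4ha1*, the other main catalytic subunit, was 2.89-fold in 2i+LIF but 1.31-fold on day 8 in LIF+serum (adjusted p = 0.593). *Crtap*, part of the prolyl 3-hydroxylase complex, was 0.624-fold on day 4 and 0.208-fold on day 8 (slope -0.25, adjusted p = 0.00362). *Serpinh1*, the collagen chaperone HSP47, was 2.9-fold on day 4, 1.02-fold on day 8 and 0.461-fold in 2i+LIF, and *Plod2*, a lysyl hydroxylase of crosslinking sites, 2.77-fold on day 4 and 1.19-fold on day 8, neither passing the test over both sets (adjusted p = 0.318 and 0.312). Within the first set both slopes passed, at 0.41 for *Serpinh1* (adjusted p = 0.0253, limma) and 0.31 for *Plod2* (adjusted p = 0.039), and in the second set both were 0.02, but the difference between the sets was not called (adjusted p = 0.128 and 0.189). Over the other untreated array the day 4 fold was 1.29 for *Serpinh1* and 5.53 for *Plod2*. Of these 19 genes 15 were at or above 6 on every array.

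Outside the cell, of 10 processing and crosslinking genes *Loxl1* rose and *Pcolce2* fell (5.75% and 5.33% of all genes). *Loxl1*, a lysyl oxidase relative, was 3.05-fold on day 8 (adjusted p = 0.0138, limma). *Pcolce2*, an enhancer of procollagen trimming, was 0.206-fold on day 8 (adjusted p = 0.0266) and 0.416-fold in 2i+LIF. Of 9 collagen receptor genes *Ddr2*, a receptor tyrosine kinase for fibrillar collagen, rose (3.72-fold on day 8, adjusted p = 0.0222) and 0 fell. Of 8 collagen-degrading protease genes 0 passed (1 at an unadjusted p under 0.05, where 28.1% of all genes were), and *Mmp2* was 1.05-fold on day 8 and 0.359-fold in 2i+LIF. Of 14 partners of type IV collagen in basement membranes 0 passed (3 at an unadjusted p under 0.05) and 10 were at or above 6 on every array. The laminin chains *Lama1*, *Lamb1* and *Lamc1* were 0.498-fold, 0.851-fold and 0.493-fold on day 8, where *Col4a1* and *Col4a2* were 2.76-fold and 3.32-fold, and the collagen-binding *Sparc* was 2.26-fold (adjusted p = 0.244).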

How the data were processed

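The authors hybridized biotin-labelled cRNA to Affymetrix mouse expression arrays and normalized the arrays in R by RMA, which subtracts background and equalizes distributions. They deposited log2 values. RMA and affy are named in the submitters' processing notes, and neither a version nor which arrays were normalized together is stated in the sources used here. RMA shrinks differences among dim probe sets, so folds of dim collagen genes may be understated.

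Of 45101 rows, 64 control probe sets were left out. The platform annotation paired 34945 of the other 45037 with 1 symbol and 932 with several, and 9160 were unnamed here. From the log2 values, limma 3.58.1 (R 4.3.3; lmFit, eBayes) fitted a slope per day over the 8 LIF+serum arrays with the array set as a term (5 residual and 4.81 prior degrees of freedom), and in a second fit a slope for each set (4 and 5.7). Adjustment was by Benjamini-Hochberg across every probe set, with a threshold of 0.05. Folds are over the untreated array of their own set and were counted at 2-fold without a test. Python 3.11.15, pandas 2.3.3, numpy 2.4.6 and matplotlib 3.10.9 were used. Promoters and gene positions came from RefSeq, GRCm38.p6. The fit was tested on simulated data.

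The members, the gene lists and the tests were chosen with earlier results of these data known. Named genes were those past the threshold, the chains of type I, III and *Col4a1* and *Col4a2*, the member of each class with the largest fold at 4 d, 8 d and in 2i+LIF, the brightest of each class, and up to 3 genes of each related list with defining markers. Other collagen genes are named to account for all members. Alternatives changed the set term, the time scale, a filter on dim probe sets, the normalization, eBayes, the probe set rule, the arrays used and the untreated reference. The number of arrays limits the precision.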

Additional observations from a re-analysis of the deposited data

How the results depend on the processing

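Over the alternatives of the slope test, 0 collagen genes fell in any, and fibrillar genes were not called in any. The count of collagen genes that rose was 1 as reported, and 2 without the array set term (*Col13a1*, *Col4a2*), with log2(day + 1) (*Col13a1*, *Col6a1*) and among probe sets that reached 6 (*Col13a1*, *Col4a2*). *Col4a2* reached 6 on the 8 d array only, so its call under that filter is no support for its rise. Leaving out 1 array at a time gave 0 to 3. It was 0 without the second untreated array, 3 without the first (*Col13a1*, *Col4a2*, *Col6a4*), and 2 without the 6 d array (*Col13a1*, *Col4a2*) or the 8 d array (*Col13a1*, *Col6a1*). For basement membrane genes the count was 0 as reported, 1 without the set term, 1 with the filter that *Col4a2* passed through its 8 d array, and 0 to 1 when an array was left out, the gene being *Col4a2*. Leaving out the second untreated array left 0 of 18193 genes called, whereas 1172 rose and 1023 fell without the first one. Without the second untreated array its set kept the 6 and 8 d arrays alone, so the slope was less precise. The standard error of the *Col13a1* slope was then 0.068, against 0.034 over all 8 arrays and 0.035 without the first untreated array. The part of that array's own values in the loss of calls was not tested.

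Of the 42 slopes, 18 had the opposite sign in the first set and 2 in the second, with 0 of these called in that set. The same was not counted over all genes. The second set spans more days of Dox and so weighs more in the slope over both sets, which by itself makes opposite signs rarer there. Among the 7 genes recomputed under each alternative (*Col13a1*, *Col1a1*, *Col1a2*, *Col3a1*, *Col4a1*, *Col4a2*, *Col18a1*), those that changed sign, without passing the test either way, were *Col1a2* (-0.0934 in the first set alone, and -0.0324, without the 8 d array, to 0.141 when an array was left out), *Col3a1* (-0.10) and *Col4a1* (-0.0013) in the first set alone, and *Col18a1* (0.069 in the first set alone, and -0.0758 to 0.0421, without the second untreated array, when an array was left out).

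Median log2 folds of the collagen genes were -0.05 at 4 d and 0.06 at 8 d, but 0.22 and -0.12 against the other untreated array. For fibrillar genes the median was -0.14 at 4 d and 0.28 against the other array, but at 8 d it stayed positive (0.24, 0.13 against the other array and 0.42 against the mean of both). For basement membrane genes it was -0.09 at 4 d, 0.0039 against the other array and -0.24 against the mean of both, and 0.39 at 8 d, -0.17 against the other array and 0.11 against the mean. The cause of the difference between the untreated arrays was not tested. In 2i+LIF the basement membrane median was 0.17, and 0.0604 with probe sets of a gene averaged. No paired analysis was possible because each Dox time has 1 array and the groups share fewer than 2 replicate numbers.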
